A study of Mus musculus with 44 samples.

Results

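Foxe1, Twist1, Lmo2 and Tspan6 were followed through every measurement of a mouse medulloblastoma series: bulk RNA of tumors, bulk RNA of treated tumor lines, open chromatin and single-cell RNA. The 4 genes were chosen by name, from a list made with results of these data in view, out of 19668 genes listed in the 2 bulk RNA tables together. No source says which measured values put them on the list, so their levels and their co-detection are given as descriptions. The p-values below come from fits over all genes and carry no correction for that choice. All 4 genes were listed in the tumor table and in both single-cell tables, and 3 were listed in the treated-line table, where Foxe1 was not. In open chromatin, 44 of 88981 regions in the table of lines and GTS sources named a member, as did 57 of 88258 regions in the table of the GFP and nonGFP fractions.

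The tumors were 6 labelled GTS and 8 labelled GTML. As background, GTML mice carry a MYCN transgene under tetracycline control that is driven from the promoter of the glutamate transporter Glt1, and in GTS mice expression from Sox9-positive cells is added. The treated lines were preGTS1 and GTML3, each given DOX or DMSO with 3 RNA samples per condition. DOX is doxycycline, the agent that switches a tetracycline-controlled transgene, and DMSO is a solvent control. ATAC-seq marks open chromatin as the places where a transposase can insert adapters. It had 2 libraries each of GTS2, GTS1, both lines under both conditions, and the fractions labelled GFP and nonGFP. The single-cell libraries were fGTS2 and a GTML tumor labelled for SOX9-GFP, with 1 library each. The labels name a tumor as the source of every sample, and preGTS1 and GTML3, which were treated in replicate, are called lines here. Strain, age, dose and time of treatment are not given in the sources used here, and nothing says that replicates came from separate animals or cultures, so p-values measure only the spread between these samples.

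The members act at different points of a cell. FOXE1 is a forkhead transcription factor known for thyroid and palate development. TWIST1 is a basic helix-loop-helix factor that pairs with E proteins and is known for mesenchyme, neural crest and epithelial-mesenchymal transition. LMO2 is a LIM-only adaptor without DNA binding of its own that bridges TAL1, E proteins, GATA factors and LDB1, and it is known for blood and endothelial development. TSPAN6 is a tetraspanin, a membrane protein with 4 spans, known for vesicle traffic and for binding the adaptor syntenin.

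Depth in the treated lines was 10.861 to 24.672 M listed reads per RNA sample. Merged ATAC duplicates held 1.796 M reads in GTML3 under DOX, the shallowest, to 14.54 M in preGTS1 under DMSO, and 21.78 M in GFP and 25.29 M in nonGFP. The single-cell libraries held 4498 fGTS2 cells with a median of 20893.5 UMIs and 4645 GTML cells with a median of 18744 UMIs, where a UMI tags 1 captured molecule. They shared 6 cell barcodes. Among the RNA libraries, GTML3 under DOX had an unlike replicate 1, with a chi-square per degree of freedom of 58.95 and 83.41 against the other two replicates, which gave 4.61 between them. Mycn, listed under the mouse symbol, had a median of 50.2 CPM under DOX and 1492 CPM under DMSO in preGTS1, and 30.6 CPM under DOX and 357 CPM under DMSO in GTML3. Of 5 medulloblastoma markers, 4 were listed in the tumors and summed to 127.4 to 967.2 CPM in GTS and 606.6 to 1232 CPM in GTML. Among them 3 were listed for single cells and summed to 50.7 CPM in fGTS2 and 86.9 CPM in GTML cells. Mycn alone gave 48.4 and 65.0 CPM of these sums. CPM is counts scaled to a common library total without a length correction, so levels are compared between samples and not between genes.

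Foxe1 had the widest range of the 4 genes in the tumors. Its log2 CPM was 1.95, 0.49, 0.21, 5.38, 5.44 and 5.996 in GTS tumors 1 to 6, with a median of 3.67. In the 8 GTML tumors it was −4.80 at the lowest, −0.42 at the median and 0.95 at the highest. Tumors 1, 4, 5 and 6 of GTS lay above every GTML tumor, and GTS tumors 2 and 3 lay inside the GTML range. The mean was 3.24 ± 2.66 in GTS (SD, n = 6) and −1.21 ± 2.11 in GTML (SD, n = 8). The fitted difference was 4.46 on the log2 scale (SE 1.36), with an adjusted p of 0.124 by limma over 15708 genes.

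The columns of the tumor table carry a number of no stated meaning, and the fit had a term for it. Number 120 held 2 GTS and 6 GTML tumors, and the other number held 4 GTS and 2 GTML tumors. Fitted alone, the tumors numbered 120 gave Foxe1 a log2 difference of 1.76 (limma adjusted p = 0.503) and those with the other number gave 7.49 (limma adjusted p = 0.168). The 3 GTS tumors with log2 values above 5 all had the other number, and so had GTS tumor 3, the lowest of its group. Without the term, Foxe1 passed with a limma adjusted p of 0.0431. The deposited values had already lost their mean difference between the numbers, so that fit understates the errors.

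The other members overlapped between the tumor groups. Twist1 log2 CPM was −0.59 at the lowest, 1.08 at the median and 2.36 at the highest in GTS, against −3.54, −0.42 and 2.63 in GTML. The GTML tumors spanned both ends of that order, since GTML tumor 6 held the highest value of all 14 tumors and GTML tumors 1 and 5 shared the lowest. Lmo2 log2 CPM ran from 4.03 to 6.63 in GTS with a median of 4.94, and from 3.56 to 5.52 in GTML with a median of 4.71. Tspan6 log2 CPM ran from 1.91 to 5.71 in GTS with a median of 4.26, and from 4.05 to 7.09 in GTML with a median of 5.18. The limma log2 differences were 1.68 for Twist1 (SE 1.06, adjusted p = 0.381), 0.40 for Lmo2 (SE 0.47, adjusted p = 0.634) and −0.996 for Tspan6 (SE 0.67, adjusted p = 0.409). Single tumors moved these values, since Tspan6 was at −0.08 without GTS tumor 1 and Lmo2 at 0.03 without GTML tumor 8, neither passing in limma.

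None of the 4 members passed the adjusted threshold of 0.05 between GTS and GTML tumors, where 0.0573% of all genes tested did (0.0509% as higher and 0.00637% as lower), and 3067 of 15708 genes had an unadjusted p under 0.05. Endothelial markers, beside which Lmo2 is often read, summed to 155 to 405.9 CPM in GTS and 171.1 to 295.6 CPM in GTML over 8 of 8 genes. Mural and fibroblast markers, which can travel with Twist1, summed to 144.3 to 714 CPM in GTS and 119 to 1906 CPM in GTML over 8 of 8 genes. Both ranges overlapped, and their part in the members' levels was not tested. In a bulk sample, fewer cells of a type and less RNA per cell cannot be told apart.

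**Figure D1:**
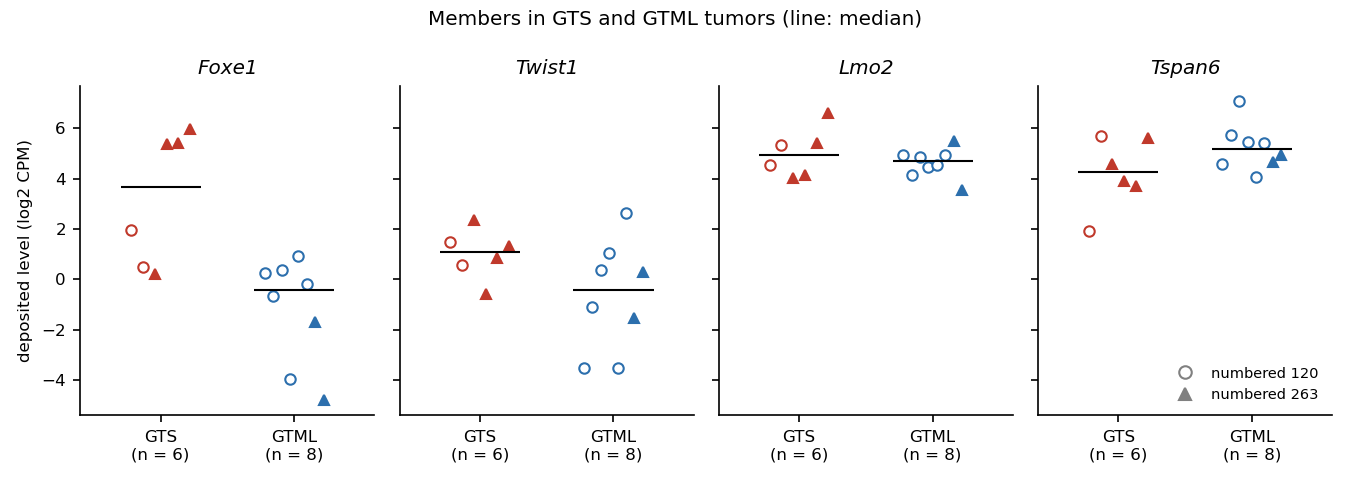
Deposited log2 CPM of Foxe1, Twist1, Lmo2 and Tspan6 in each GTS (n = 6) and GTML (n = 8) tumor, with open circles for number 120, triangles for the other number and a line at the group median. Foxe1 has 3 GTS tumors between 5.38 and 5.996, above the GTML maximum of 0.95, while the other 3 genes overlap between the groups.

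In the treated lines the 2 transcription regulators were features of preGTS1. Twist1 had 1001, 1118 and 877 reads in preGTS1 under DOX and 652, 627 and 641 reads in preGTS1 under DMSO, against 0 reads in all 6 GTML3 libraries. The line sums were 59.0 CPM under DOX and 30.0 CPM under DMSO in preGTS1. Against a floor of 3 reads over each GTML3 group, Twist1 was at least 848-fold higher in preGTS1 under DOX and at least 570-fold higher under DMSO. The 2 lines did not overlap, and the share of all genes for which this held was not counted.

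Lmo2 followed the same order at lower counts. It had 262, 258 and 257 reads in preGTS1 under DOX and 39, 27 and 36 reads in preGTS1 under DMSO. GTML3 had 2, 0 and 2 reads under DOX and 4, 2 and 0 reads under DMSO. Every preGTS1 library was above every GTML3 library, and every preGTS1 DOX library was above every preGTS1 DMSO library. Such separation was not counted over all genes and may be common. In limma, 66.4% of all genes passed between the lines under DMSO, 72.0% under DOX, and 68.3% with DOX in preGTS1. On summed reads, Lmo2 was 165-fold higher in preGTS1 than in GTML3 under DOX (64.2 to 607) and 15.1-fold higher under DMSO (6.72 to 42.2). Those bounds are exact 95% intervals that cover counting error only.

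Tspan6, the membrane protein, had close levels in both lines under DMSO. Its log2 CPM was 5.94, 6.09 and 5.996 in preGTS1 and averaged 5.87 ± 0.09 in GTML3 (SD, n = 3). Under DOX it was 5.34, 5.14 and 5.33 in preGTS1 and averaged 5.80 ± 0.02 in GTML3 (SD, n = 3). The preGTS1 DOX libraries were the 3 lowest of all 12.

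Twist1 and Lmo2 reached the limit of 1 CPM in 3 samples through preGTS1 alone, since no GTML3 library had more than 0.203 CPM of Lmo2 or any read of Twist1. They could enter the comparison of the lines only as genes higher in preGTS1, so their differences are given with no p-value. With the deposited values, in which a small offset stands for 0 reads, the log2 differences were 11.07 under DMSO and 12.04 under DOX for Twist1, and 4.43 and 7.81 for Lmo2. On log2(CPM + 1) they were 4.95 and 5.90 for Twist1, and 1.23 and 3.90 for Lmo2. Tspan6, which every library detected, differed by 0.14 under DMSO (SE 0.08, limma adjusted p = 0.147), where 66.4% of all 15926 genes passed in either direction, 38.5% as higher and 27.9% as lower. Under DOX it was lower in preGTS1 by 0.53 on the log2 scale, with a limma adjusted p of 2.99e-05, where 72.0% of all genes passed, 36.9% as higher and 35.0% as lower.

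DOX raised Twist1 and Lmo2 and lowered Tspan6 in preGTS1. All 3 listed members passed limma in that comparison, where 68.3% of all genes passed, 34.5% as higher and 33.7% as lower. Lmo2 rose by 3.27 on the log2 scale (SE 0.99, adjusted p = 0.00928, limma), which on summed reads was 9.60-fold (7.80 to 11.9). The fit shared its spread over both lines. For Lmo2 the SD was 0.07 and 0.28 in preGTS1 under DOX and DMSO, and 2.01 and 2.09 in GTML3, so that SE came mostly from GTML3. Twist1 rose by 0.97 (SE 0.37, adjusted p = 0.0282, limma), or 1.97-fold on summed reads (1.86 to 2.08). Tspan6 fell by 0.74 on the log2 scale (SE 0.08), with a limma adjusted p of 9.33e-07. The Twist1 call was lost in limma when any 1 preGTS1 library was left out, at adjusted p of 0.0855 to 0.167, while edgeR's quasi-likelihood test on whole reads recovered from the deposited values gave an adjusted p of 4.27e-06.

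In GTML3, none of the 3 listed members passed between DOX and DMSO, where 65.8% of all genes did, 34.5% as higher and 31.4% as lower. Twist1 was at 0 reads under both conditions. Tspan6 had 643, 732 and 1028 reads under DOX and 1162, 918 and 1251 reads under DMSO, at a log2 difference of −0.06 (SE 0.08, limma adjusted p = 0.514). Lmo2 rested on 4 reads under DOX and 6 reads under DMSO, too few for a direction.

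The difference between the DOX responses of the 2 lines was tested directly, as preGTS1 minus GTML3. Only Tspan6 passed of the 3 listed members, where 42.2% of all genes passed, 17.1% as higher and 25.1% as lower. Its response was −0.74 in preGTS1 and −0.06 in GTML3, a difference of −0.67 (SE 0.12, limma adjusted p = 0.000321). Without replicate 1 of GTML3 under DOX it was −0.67 (limma adjusted p = 0.000679). The difference for Lmo2 was 3.38 (SE 1.40, limma adjusted p = 0.0669), and edgeR on recovered reads gave 3.43 with an adjusted p of 0.0109. The limma SE for Lmo2 came mostly from the GTML3 libraries, with 4 reads under DOX and 6 under DMSO. The difference for Twist1 was 0.97 (SE 0.52, limma adjusted p = 0.145), set against a line with no read of the gene.

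Some marker genes of other cell types moved with these values and others went against them. Of 8 endothelial markers, Pecam1, Kdr and Egfl7 were listed in the lines, and their sum was 74.4 to 83.9 CPM in preGTS1 under DOX, 25.4 to 30.7 CPM in preGTS1 under DMSO, 6.74 to 10.3 CPM in GTML3 under DOX and 4.59 to 4.92 CPM in GTML3 under DMSO. Kdr, the VEGF receptor, had a median of 58.9 CPM in preGTS1 under DOX and 2.49 CPM under DMSO. Pecam1 had medians of 2.77 and 1.81 CPM there, on 131 and 127 reads. Egfl7 went the other way, with medians of 13.9 CPM under DOX and 21.6 CPM under DMSO. The libraries of Pecam1 and of Egfl7 overlapped between the conditions. Of 8 mural and fibroblast markers, Pdgfrb, Rgs5 and Col3a1 were listed, with sums of 258.7 to 270.3 CPM in preGTS1 under DOX, 113.3 to 160.3 CPM in preGTS1 under DMSO, 4.13 to 5.29 CPM in GTML3 under DOX and 3.74 to 5.02 CPM in GTML3 under DMSO. Col3a1, a fibrillar collagen, carried that sum, with a median of 255.9 CPM in preGTS1 under DOX and 153.8 CPM under DMSO. Rgs5, a pericyte marker, went the other way between the lines, with 3 reads in all in preGTS1 under DOX and 2 under DMSO, against a median of 5.13 CPM in GTML3 under DOX and 4.62 CPM under DMSO. The 5 neuronal markers summed to 809 to 972.1 CPM in preGTS1 under DOX, 179.6 to 218.7 CPM in preGTS1 under DMSO, 659.9 to 686.8 CPM in GTML3 under DOX and 347.7 to 376.5 CPM in GTML3 under DMSO. Microglial and erythroid markers had no listed gene in the lines. The part of such cells in the levels of Lmo2 and Twist1 was not tested.

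**Figure D2:**
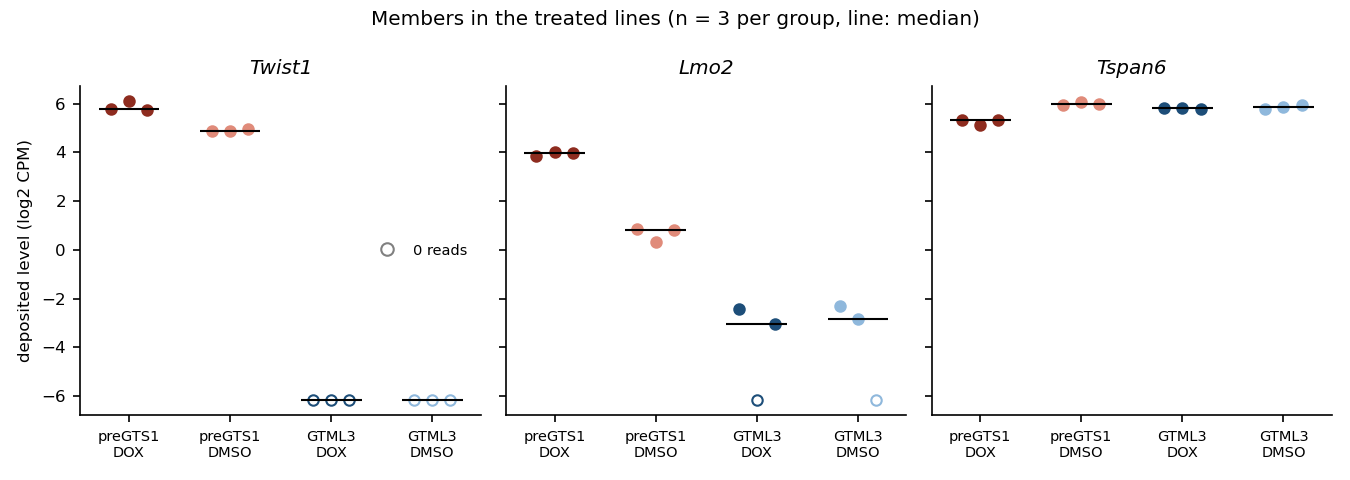
Deposited log2 CPM of Twist1, Lmo2 and Tspan6 in each library of preGTS1 and GTML3 under DOX and DMSO (n = 3 per group), with open circles for libraries at 0 reads and a line at the median. Twist1 has 0 reads in all 6 GTML3 libraries, Lmo2 is highest in preGTS1 under DOX, and Tspan6 is lowest there.

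Genes known to act with the members were counted from lists named by role. Of 15 genes that pair with TWIST1 or mark mesenchymal transition, 10 were tested in the lines, and under DMSO 10 of 10 were higher in preGTS1 than in GTML3, where 38.5% of all genes were higher and 27.9% lower. Their median log2 difference was 2.58, against 0.13 over all genes. Vim, the intermediate filament vimentin, had 21061 reads in preGTS1 and 139 in GTML3. Hand2, a helix-loop-helix partner of TWIST1, had 280 and 3 reads, Id4 had 134 and 0, and Id3 had 842 and 15. Hand2, Id4 and Id3 were tested through preGTS1 alone and could only be counted as higher there. Vim averaged 1.29 log2 CPM in GTML3 under DMSO and 1.16 under DOX, above the limit of 1 CPM. The filter on level thus set part of that count in advance. Under DOX against DMSO in preGTS1, 7 of the 10 rose and 1 fell, where 34.5% of all genes rose and 33.7% fell. Id4 rose by 2.91, Id2 by 2.82 and Vim by 2.68 on the log2 scale, and the ID proteins are known to hold E proteins away from DNA. In GTML3 the same comparison had 3 higher and 2 lower, where 34.5% and 31.4% of all genes were, led by Fn1, which fell by 2.03 on the log2 scale. In the tumors 12 were tested and none passed, with a median log2 difference of 0.77 against −0.07 over all genes.

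Of 16 genes of the LIM-only family and the LMO2 complex, 9 were tested in the lines. In preGTS1, DOX raised 5 and lowered 1, against 34.5% and 33.7% of all genes. They were led by Gata3 with 77 reads under DOX and 9 under DMSO, Lmo4 with 3714 and 1702 reads, and the E protein gene Tcf4 with 22783 and 14942 reads. Gata3 reached 1 CPM under DOX alone, so the limit on level favoured its count as raised. In GTML3, DOX raised 2 and lowered 3, against 34.5% and 31.4% of all genes, and Lmo4 there had 201 reads under DOX and 1038 under DMSO. Between the lines under DMSO, 4 were higher and 2 were lower in preGTS1, against 38.5% and 27.9% of all genes. Lmo3, with 342 reads in preGTS1 and 0 in GTML3, was tested through preGTS1 alone. Tal1, the partner that LMO2 is known to bridge, went the other way from Lmo2, with 26 reads in preGTS1 and 576 in GTML3, and was tested through GTML3 alone. Ldb1, which holds the complex together, was 0.98 higher on the log2 scale in preGTS1.

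Of 22 tetraspanins and TSPAN6 partners, 22 were tested in the lines. DOX raised 15 and lowered 3 in preGTS1, where it raised 34.5% and lowered 33.7% of all genes. It raised 12 and lowered 4 in GTML3, where the shares were 34.5% and 31.4%. Tspan6, which is not on that list, moved with the 3 that fell in preGTS1, led by Tspan4 at −1.46 on the log2 scale. App, the amyloid precursor, rose by 2.27 in preGTS1 and by 1.63 in GTML3. Tspan12, a co-receptor of Frizzled-4 signaling, had 1544 reads in preGTS1 and 1 read in GTML3 under DMSO, and so was tested through preGTS1 alone. The FOXE1 list, which holds thyroid and palate genes, had 3 of 14 genes tested in the lines. Of those, Msx1 rose by 2.06 and Tgfb3 by 0.96 with DOX in preGTS1, and Foxe1 itself was not analysed there. In the tumors none of the tested genes of these lists passed.

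In single cells, all 4 genes had higher levels in fGTS2 than in the GTML library. Foxe1 had a UMI in 94.3% of fGTS2 cells and 14.1% of GTML cells, at 201 and 9.69 CPM of each library's summed UMIs. Lmo2 had a UMI in 85.8% of fGTS2 cells and 7.23% of GTML cells, at 123 and 5.50 CPM. Tspan6 had a UMI in 89.6% of fGTS2 cells and 6.11% of GTML cells, at 157 and 5.71 CPM. Twist1 stood apart from the other three, with a UMI in 13.3% of fGTS2 cells (12.3 to 14.3, exact binomial 95% interval) and 6.20% of GTML cells (5.52 to 6.93), at 7.24 and 4.92 CPM. With 1 library each there is no test of these differences, and every interval covers counting error only.

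Thinned to 5000 UMIs per cell, in 4358 fGTS2 cells and 4537 GTML cells, the shares were 60.7% and 5.38% for Foxe1, 46.2% and 2.87% for Lmo2, 51.9% and 3.28% for Tspan6, and 3.28% and 2.69% for Twist1. The order of the libraries was kept for each gene, but by a small margin for Twist1. A class of cells that should lack the genes could not be formed, since microglial markers marked 2 fGTS2 cells and 0 GTML cells. No doublet caller was run.

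Within the GTML library the 4 genes were found together in a small set of cells. Of 4645 GTML cells, 3646 had none of the 4 genes, 682 had 1, 133 had 2, 119 had 3 and 65 had all 4. Shares within 10 strata of total UMIs would give 3272, 1193.6, 167.2, 11.8 and 0.369 such cells if the genes were detected independently. At least 3 genes were therefore detected in 184 cells, or 3.96%, against 12.2 expected. In fGTS2 the same count was 3536 cells against 3473 expected. The cells with at least 3 genes were shallower, with a median of 12913.5 UMIs, than GTML cells with none, at 18792.

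Every pair of members shared cells more often than expected in GTML. The ratio of observed to expected cells was 3.47 for Foxe1 with Twist1, 3.01 for Foxe1 with Lmo2, 4.45 for Foxe1 with Tspan6, 4.84 for Twist1 with Lmo2, 6.21 for Twist1 with Tspan6 and 5.65 for Lmo2 with Tspan6. In fGTS2 all 6 ratios lay between 1.01 and 1.02, where most cells had 3 of the 4 genes and little room was left for a higher ratio. Odds ratios over the strata, which do not have that ceiling, ran from 5.73 to 25.6 in GTML and from 1.10 to 2.60 in fGTS2.

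Each gene was also read in GTML cells that held the other three. Tspan6 had a UMI in 80.2% of such cells and in 1.30% of cells with none of the other three. Foxe1 had a UMI in 74.7% and 10.0%, Lmo2 in 60.2% and 3.62%, and Twist1 in 63.1% and 2.46%. For Foxe1, Lmo2 and Tspan6 those shares lay below the fGTS2 library's own. Twist1 went beyond it: in cells with the other three it stood at 72.0 CPM in GTML (59.7 to 86.0) and 7.18 in fGTS2 (6.62 to 7.77).

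**Figure D3:**
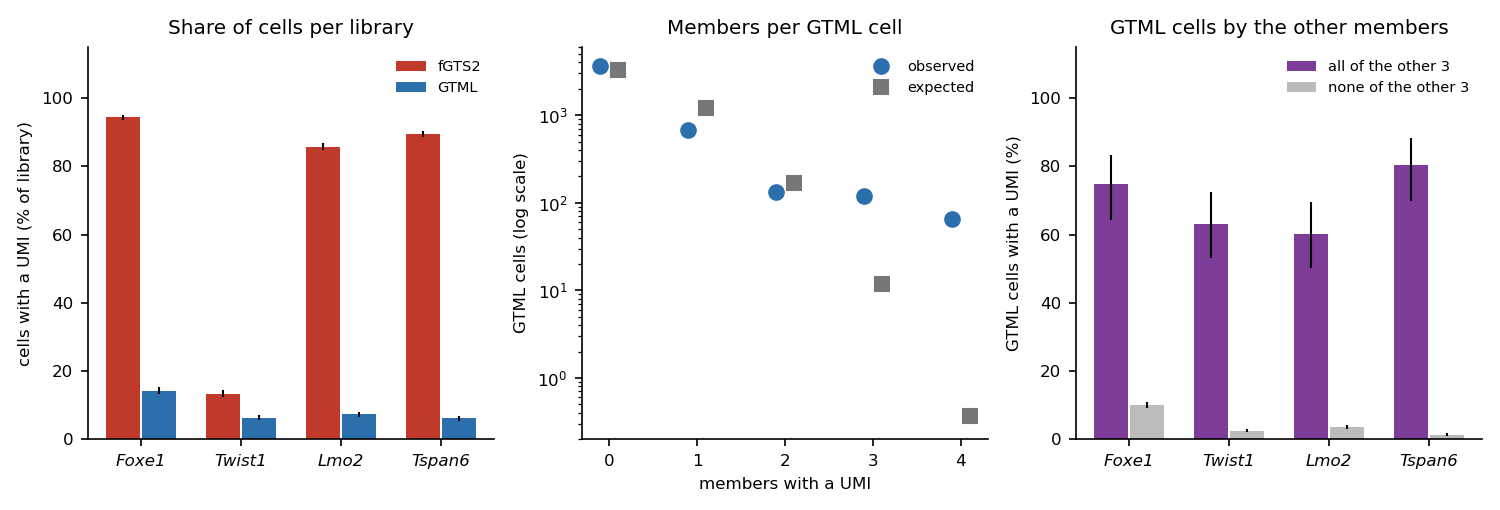
Left, the share of fGTS2 and GTML cells with a UMI of each member (bars, exact 95% binomial intervals). Middle, on a log scale, GTML cells by the number of members with a UMI, observed and expected from independent detection in strata of depth: 65 cells have all 4 against 0.369 expected. Right, the share of GTML cells with a UMI of each member among cells with all or with none of the other three.

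Other genes were read in the 184 GTML cells with at least 3 members against the 3646 with none. Sox9, which drives the transgene in GTS mice, had a UMI in 28.8% against 10.3%. Trp53 had a UMI in 44.0% against 0.384%, at 42.5 and 0.215 CPM, and in fGTS2 it had a UMI in 71.6% of all cells. Mycn was at 63.6 and 65.0 CPM and the proliferation marker Mki67 at 228.1 and 229.3, both within counting error. Top2a was at 451 and 569 CPM. The neuronal gene Mapt had a UMI in 16.3% against 27.3% and the Hippo pathway factor gene Tead2 in 14.7% against 24.5%. Stmn2 had a UMI in 0 of the 184 cells, which allows a share of cells with a UMI of up to 1.63%, set at 3 cells of the total. It had a UMI in 3 of the 3646 cells with no member, or 0.0823%. That share lies under the limit, so the 0 shows no difference.

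Cdkn1a, a known target of p53, and Cdkn2a, which encodes p16 and p19ARF, were looked up after these values were seen. Cdkn1a was at 161 CPM in the 184 cells and 58.7 in cells with no member. Cdkn2a was at 70.6 and 168. In fGTS2 as a whole they were at 157 and 85.6.

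The genes most like each member were ranked by Pearson r of log2(1 + UMIs per 10000) over the cells of a library. In GTML, over 4645 cells, Mgst3, a microsomal glutathione transferase, was first for Twist1 (r = 0.52), Lmo2 (r = 0.53) and Tspan6 (r = 0.63) and second for Foxe1 (r = 0.48), whose first was Tspan6 (r = 0.51). Pou2f1, the octamer factor OCT1, had rank 3 for all 4, at r of 0.39 to 0.50. Mgst3 was at 671 CPM in GTML cells with at least 3 members and 14.6 in those with none, and Pou2f1 at 297 and 38.4. Both genes were picked by their r with the members over these same cells, so a contrast of this direction was built into the choice. In fGTS2, over 4498 cells, the nearest genes differed by member. Foxe1 had Ltc4s (r = 0.26) and Alox5ap (r = 0.24), both of leukotriene synthesis, and Tmem176a (r = 0.24). Lmo2 had Alox5ap (r = 0.28), the actin regulator Avil (r = 0.27) and Arpc2 (r = 0.26). Tspan6 had Basp1 (r = 0.31) and Lrmp (r = 0.30) among its nearest. Twist1 had its highest r with Mettl9, at 0.101. Cells of a library share its depth and free RNA, and a weak r in sparse counts is no finding.

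Markers of other cell types were also summed in the GTML cells with at least 3 members and in those with none. Of 9 microglial markers 6 were listed. All 6 were at 0 UMIs in the 184 cells with at least 3 members, and they summed to 44 UMIs, or 0.591 CPM, in those with none. A 0 in the 184 cells allows up to 1.05 CPM, set at 3 UMIs, so no 0 given here shows absence. Of 8 endothelial markers 6 were listed, with a sum of 41.8 CPM in cells with at least 3 members and 19.5 in those with none, and Pecam1, Cdh5, Emcn and Flt1 were at 0 in the cells with at least 3 members. The 3 listed mural and fibroblast markers summed to 1.05 and 3.09 CPM. The medulloblastoma markers summed to 69.2 and 88.4 CPM, with Pax6 at 0 in the cells with at least 3 members. Mycn made up most of both sums, with 181 of 197 UMIs in the 184 cells and 4840 of 6576 in those with none. The sums thus say little of the other listed markers, which held a smaller part in the 184 cells. Neuronal markers, 5 of 5 listed, summed to 267.8 and 259.1 CPM, and astrocyte markers, 3 of 5, to 54.1 and 57.0 CPM. Oligodendrocyte markers, 2 of 6, summed to 41.1 and 33.2 CPM, and meningeal and neural crest markers, 2 of 4, to 3.51 and 1.26 CPM. The 1 listed ependymal marker had 2 UMIs, or 0.703 CPM, in the cells with at least 3 members and 0.148 CPM in those with none. Endothelial, oligodendrocyte, meningeal, ependymal and, by little, neuronal sums were thus higher in the cells with at least 3 members. The meningeal sum there rested on 10 UMIs, with Ptgds at 0, and most listed endothelial genes were at 0. The part of such cells was not tested.

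Open chromatin was read in regions that the deposited tables tie to a member by its nearest gene start, at coordinates that fit the mouse build mm9. Duplicates of a source were merged, so the regions carry no test. A region was counted as higher or lower at a CPM ratio of at least 2 or at most 0.5 where the 2 sources together had 10 reads. Intervals of regions cover counting error only. Duplicates differed by more than that, at a chi-square per degree of freedom of 1.85 to 2.06, so these intervals are too narrow. The table of lines and GTS sources gave 32 regions to Twist1, 7 to Foxe1, 4 to Lmo2 and 1 to Tspan6. All 32 Twist1 regions also named Hdac9, the neighbouring gene, and reached to 949 kb from the Twist1 start, so a region's tie to Twist1 is one of distance only.

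The sequence upstream of the start is shown for the member whose start region varied most and for one whose start region stayed within 2-fold in every comparison. Each run is the 250 bases before the annotated start, read in the direction of the gene, from RefSeq on GRCm38.p6, a build that was not laid over the mm9 regions. Twist1 lies at chr12:33957421-33957670 on the plus strand and Tspan6 at chrX:133898430-133898679 on the minus strand. Capitals mark TATAAA, 126 to 121 bases before the Twist1 start, and CCAAT, 89 to 85 bases before it.
Twist1: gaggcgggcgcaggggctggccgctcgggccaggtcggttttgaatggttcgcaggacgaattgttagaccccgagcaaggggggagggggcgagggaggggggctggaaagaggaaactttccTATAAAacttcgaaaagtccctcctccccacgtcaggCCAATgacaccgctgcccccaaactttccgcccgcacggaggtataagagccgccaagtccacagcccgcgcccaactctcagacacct
Tspan6: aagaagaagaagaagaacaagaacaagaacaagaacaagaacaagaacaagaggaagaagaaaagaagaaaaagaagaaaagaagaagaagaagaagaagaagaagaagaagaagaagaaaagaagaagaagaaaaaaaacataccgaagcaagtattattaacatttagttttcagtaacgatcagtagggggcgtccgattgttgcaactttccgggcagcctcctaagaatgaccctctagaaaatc
The Twist1 run was 62.4% G and C and the Tspan6 run, with long repeats of aag, held fewer of both. Searched on both strands, TATAAA stood in 12.4% and CCAAT in 33.8% of 32851 promoters of the same length, and both were added to the search after the sequences were seen. CACGTG (6.02% of promoters), CANNTG (66.2%), GATA (53.6%) and TGTTTA (12.0%) had no match in either run, where CACGTG is one form of CANNTG. Only 2 of the 4 members were found in the promoter table, and Foxe1 and Lmo2 are named only.

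The Twist1 start region, chr12:34642291-34643465, lies 343 bases from the start. It had 60.8 CPM in GTS2 and 28.6 CPM in GTS1. It had 5.31 CPM in preGTS1 under DOX, 11.6 CPM in preGTS1 under DMSO, 0 reads in GTML3 under DOX and 2.63 CPM in GTML3 under DMSO. The order of sources was that of the Twist1 RNA for the lines, with preGTS1 above GTML3. Against GTML3 under DMSO the ratio was 23.1 for GTS2 (11.9 to 51.4), 10.9 for GTS1 (5.60 to 24.2) and 4.39 for preGTS1 (2.26 to 9.77), 3 ratios that share their denominator. Under DOX, preGTS1 was at least 3.18-fold higher than GTML3, whose 0 reads were set to 3. Between conditions the region and the RNA of preGTS1 differed in direction, since the region was 0.459 of its DMSO level under DOX (0.340 to 0.614) and Twist1 RNA was 1.97-fold higher.

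Farther regions of Twist1 differed between the GTS sources themselves. The region chr12:34737611-34738358, 95 kb from the start, had 32.4 CPM in GTS2 and 1.31 CPM in GTS1, and between 0.557 and 1.77 CPM in the lines. The region chr12:34857797-34858341, 216 kb away, had 0.703 CPM in GTS2 and 23.7 CPM in GTS1, and between 0.688 and 1.17 CPM in the lines. Each was thus open in 1 of the GTS sources, at a log2 ratio of 4.62 for the nearer region and −5.07 for the farther one, GTS2 over GTS1. Another region, chr12:34840388-34841265 at 198 kb, was picked after its values were seen and had 2.46 CPM in GTS2 and 39.6 CPM in GTS1.

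Both GTS sources and the lines parted at a pair of regions far from Twist1, also picked after their values were seen. At chr12:35213259-35214358, 571 kb away, GTS2 had 53.1 CPM and GTS1 61.7 CPM, against 7.56 CPM in preGTS1 under DOX, 12.0 under DMSO, 1.11 in GTML3 under DOX and 2.05 under DMSO. At chr12:35459804-35461503, 818 kb away, the order was turned round, with 2.11 CPM in GTS2 and 6.25 CPM in GTS1, against 38.8 CPM in preGTS1 under DOX, 118.0 under DMSO, 31.7 in GTML3 under DOX and 42.1 under DMSO. In preGTS1 that region stood under DOX at 0.329 of its DMSO level (0.297 to 0.364).

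**Figure D4:**
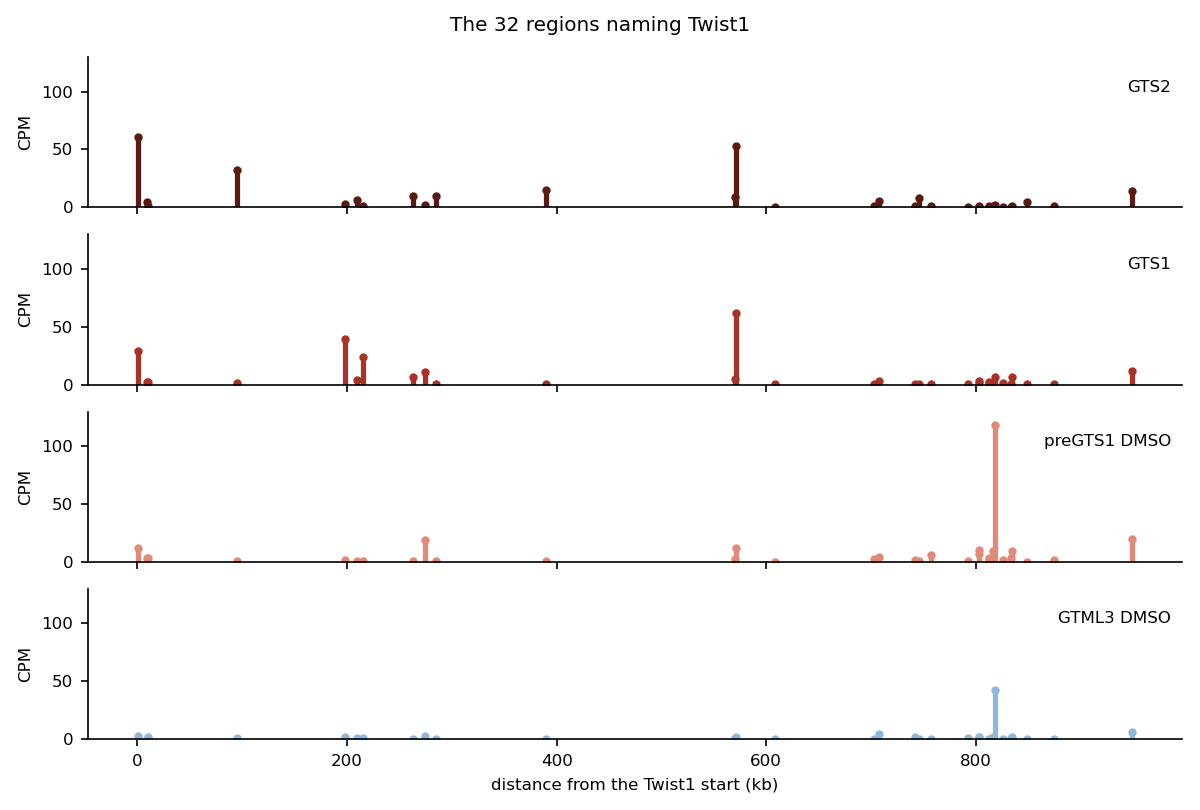
CPM of merged duplicates in the 32 regions naming Twist1, by distance from the Twist1 start in kb, for GTS2, GTS1, preGTS1 under DMSO and GTML3 under DMSO on a shared scale. GTS2 and GTS1 share tall regions at the start and 571 kb away and differ at 95, 198 and 216 kb, and the 818 kb region is tall in the lines.

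Of the 4 Lmo2 regions, the 3 away from the start were 2-fold or more higher in preGTS1 than in GTML3 under both conditions. The start region was not. Of all counted regions, 35.3% were higher and 10.9% lower in preGTS1 under DMSO, and 35.7% and 11.8% under DOX. The 3 regions met the limit on summed reads through preGTS1 alone, the deeper source. It held 14.54 M reads under DMSO against 3.419 M in GTML3, and 12.43 M against 1.796 M under DOX. That limit thus favoured their count as higher in preGTS1. The start region, chr2:103809434-103810843, lies 305 bases from the start and had 58.4 CPM in GTS2, 16.9 in GTS1, 17.5 in preGTS1 under DOX, 20.5 in preGTS1 under DMSO, 20.6 in GTML3 under DOX and 26.6 in GTML3 under DMSO. The lines stayed within 2-fold of each other there although Lmo2 RNA differed 165-fold and 15.1-fold between them. GTS2 was 3.45 times GTS1 (2.68 to 4.45).

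The region chr2:103788941-103789771, 21 kb from the Lmo2 start and nearest also to Lincred1, had 309 reads in preGTS1 under DOX and 61 under DMSO, 6 in GTML3 under DOX and 3 under DMSO. These were 24.9, 4.20, 3.34 and 0.877 CPM. It was 5.93-fold higher under DOX than under DMSO in preGTS1 (4.49 to 7.93), beside 9.60-fold for Lmo2 RNA. It had 1 read in GTS2 and 15 reads in GTS1, so it was near 0 in the GTS source with the most open Lmo2 start. The other regions had few reads. That at 42 kb, chr2:103767829-103768317, had 25 reads in preGTS1 under DOX and 11 under DMSO, against 1 read in GTML3 under DOX and 0 under DMSO, and was 2.66-fold higher with DOX in preGTS1 (1.26 to 5.99). Its intervals between the lines began at 0.591 under DOX and 0.590 under DMSO, so counting error alone spans equal levels there. That at 33 kb, chr2:103843028-103843310, had 31 reads in preGTS1 under DOX and 34 under DMSO, against 0 reads in GTML3 under DOX and 1 under DMSO.

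The Tspan6 start region, chrX:130432386-130433208, lies 171 bases from its start, with Tnmd as the other gene. It had 27.8 CPM in GTS2, 18.1 in GTS1, 15.7 in preGTS1 under DOX, 20.6 in preGTS1 under DMSO, 30.1 in GTML3 under DOX and 26.9 in GTML3 under DMSO, and stayed within 2-fold in all 7 comparisons of that table. The lowest value was in preGTS1 under DOX, where Tspan6 RNA was lowest too, at a ratio of 0.760 to DMSO (0.632 to 0.914).

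**Figure D5:**
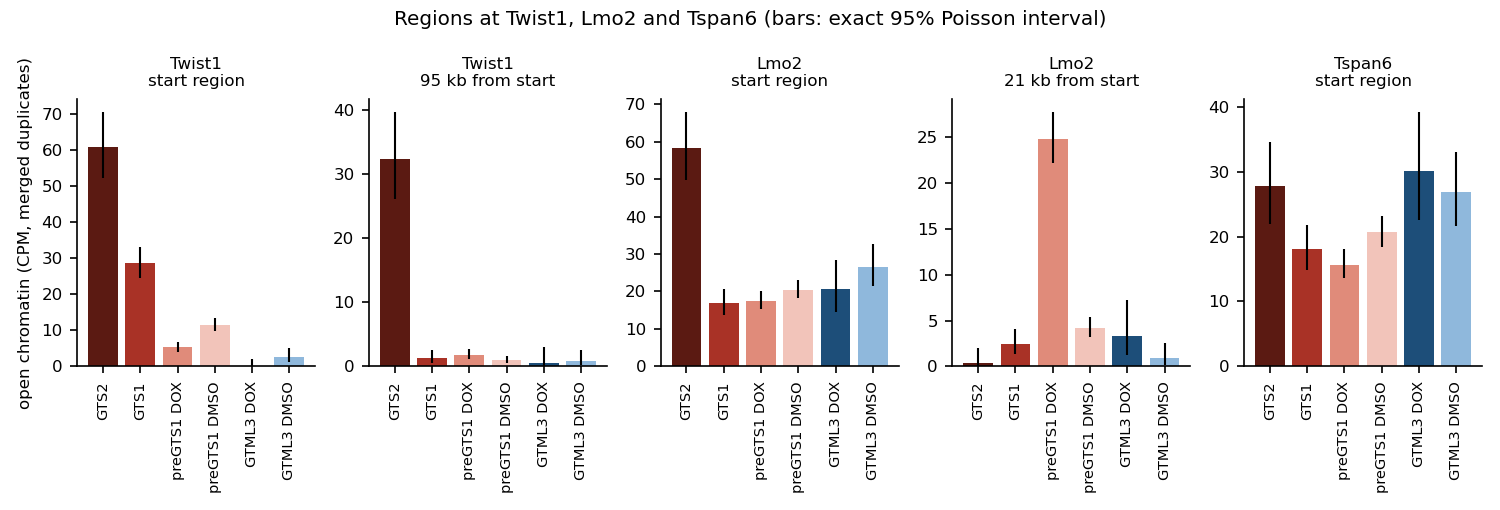
CPM of merged duplicates in 5 regions, the starts of Twist1, Lmo2 and Tspan6, the Twist1 region at 95 kb and the Lmo2 region at 21 kb, in GTS2, GTS1, preGTS1 and GTML3 (bars, exact 95% Poisson intervals, each panel with its own scale). The Lmo2 region at 21 kb is tall in preGTS1 under DOX, at 24.9 CPM, and the Tspan6 start varies least.

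Foxe1 had no region at its start in that table. Its nearest region, chr4:46364402-46364714 at 8 kb, had 12.3 CPM in GTS2, 0.822 in GTS1, 0.241 in preGTS1 under DOX, 0.275 in preGTS1 under DMSO and 0 reads in GTML3 under both conditions. GTS2 was 15.0 times GTS1 there (5.84 to 49.0), and at least 14.03-fold above GTML3 under DMSO. The region chr4:46368392-46369491 at 12 kb went the other way, with 3.87 CPM in GTS2 and 1.48 in GTS1, against 25.03 in preGTS1 under DOX, 12.7 under DMSO, 15.6 in GTML3 under DOX and 7.02 under DMSO. Under DOX it was 1.98-fold its DMSO level in preGTS1 (1.64 to 2.39) and 2.22-fold in GTML3 (1.24 to 4.003). The region chr4:46387887-46388242 at 32 kb had 10.6 CPM in GTS2 and 4.27 in GTS1, against 2.66 in preGTS1 under DOX, 3.302 under DMSO, 2.23 in GTML3 under DOX and 2.05 under DMSO.

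Counts over the 44 regions are given beside those of the whole table, whose own split differed between comparisons. Against GTML3 under DMSO, 16 of 27 counted regions were higher and 2 lower in GTS2, where 27.8% of all regions were higher and 37.4% lower. For GTS1, 17 of 30 were higher and 2 lower, where 30.5% and 27.8% of all regions were. For preGTS1, 22 of 36 were higher and 0 lower, where 35.3% and 10.9% were. Under DOX, 18 of 38 were higher and 3 lower in preGTS1, where 35.7% and 11.8% were. GTS2 over GTS1 had 11 of 34 higher and 11 lower, where 24.1% and 39.8% were. DOX over DMSO gave 7 of 42 higher and 7 lower in preGTS1, where 19.3% and 15.4% were, and 6 of 16 higher and 1 lower in GTML3, where 15.6% and 15.0% were. Most counted regions named Twist1, and regions of 1 gene are not independent. A region also enters a count more readily where a source is deep, and GTML3 under DOX was the shallowest.

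Few regions passed 2-fold between the GFP and nonGFP fractions, at the members as over the whole table. Of 57 regions, 2 were higher and 2 lower in GFP, where 4.09% and 1.54% of all regions were. The start regions had 52.0 CPM in GFP and 51.7 CPM in nonGFP for Twist1, 32.1 and 25.7 CPM for Lmo2, and 7.16 and 7.67 CPM for Foxe1. The Foxe1 region at 7.5 kb, chr4:46364375-46364753, had 2.16 CPM in GFP and 0.949 CPM in nonGFP, 2.27 times as much (1.36 to 3.89). A region 50 kb from Lmo2, chr2:103759653-103759950, had 1.88 and 0.712 CPM, 2.64 times as much (1.49 to 4.89). The regions lower in GFP were one of Twist1 at 152 kb, chr12:34794508-34794859, with 1.15 CPM in GFP and 2.77 CPM in nonGFP (ratio 0.415, 0.252 to 0.663), and one of Tspan6 at 1.6 kb, chrX:130434497-130434723, with 10 reads in GFP and 27 in nonGFP (ratio 0.430, 0.186 to 0.917). That Tspan6 ratio rests on few reads and an interval that leaves out the spread between duplicates, so it may not part the fractions. The nearest starts that the 2 deposited tables use for Foxe1 are not the same, so its distances are not compared between them.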

How the data were processed

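The members and gene lists were chosen with earlier results of these data known. Tools named in the submitters' processing notes are Cell Ranger 3.3.0 and Seurat 3.0, then STAR 2.4.0, Subread 1.5.2 and limma, and MACS2, Bowtie2 2.2 and edgeR, with builds mm9 and mm10; their roles are not given in the sources used here. The authors deposited log2 CPM per gene for bulk RNA, CPM per region for ATAC, and UMI counts per gene and cell. Groups came from sample titles, because the free-text description of a treated-line sample names the next column. Log2 values were tested as deposited with limma 3.58.1 (trend, robust) in R 4.3.3, over genes at 1 CPM in at least 6 tumors or 3 line samples, with Benjamini-Hochberg adjustment. The tumor model had a term for the number in the column names, whose mean effect was at most 1.8e-14 in the deposited values. In the lines and in ATAC, 100% of values gave whole reads within 0.1 read, after an offset of 0.01395 CPM in the lines. edgeR 4.0.16 and DESeq2 1.42.0 were run on those reads as alternatives. ATAC duplicates, which differed by a chi-square per degree of freedom of 1.85 to 2.06, were summed and counted as 1 sample. Intervals are exact at 95% and cover counting error only, so for ATAC they are too narrow. Co-detection was set against independence within 10 strata of UMIs per cell. Members and partner genes were named by rule: the 3 list genes of largest fold change among those passing, regions within 1 kb of a start or with the largest ratio, and the 3 most like genes, of which 1 is not reported here. Scripts were tested on simulated data. Replicate numbers did not pair the samples.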

Additional observations from a re-analysis of the deposited data

Results flagged for a closer look

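Tspan6 differed in its DOX response between the lines. The response in preGTS1 minus that in GTML3 was −0.67 on the log2 scale, with a limma adjusted p of 0.000321 for the difference itself, where 42.2% of all genes passed the same test. Tspan6 was lower under DOX than under DMSO in every preGTS1 library, and its GTML3 libraries overlapped between the conditions. No tumor stood out from its group in any of the 4 genes by Dixon's test.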

How the results depend on the processing

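Over 42 results, 458 alternatives kept direction and side of the threshold, 59 moved a count or level past its limit, 6 lost a call, 7 gained one and 3 reversed. In the tumors the count of genes passing, 9 as reported, was 20 with each library centred on its median gene, 21 without trend and robust, 924 without the number term and 0 in either number alone. Leaving out 1 tumor gave 2 to 585, with 585 without GTS replicate 2 and 319 without GTS replicate 3. Foxe1 passed without the number term (4.46, limma adjusted p = 0.0431) and ranged over 3.21 to 5.54 without 1 tumor (limma adjusted p = 0.0578 to 0.267). Centring moved the median of all genes to 0.03 from −0.07 in the tumors and to 0.02 from 0.13 between the lines under DMSO, where Tspan6 moved to 0.03 from 0.14. The cause was not tested.

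Leaving out 1 line library gave the Twist1 response in preGTS1 as 0.852 to 1.04, lost without any 1 of the 6 preGTS1 libraries. Lmo2 in GTML3, on 4 and 6 reads, ranged over −1.31 to 1.04 and turned positive without DMSO replicate 1 (0.625), DMSO replicate 2 (0.356) or DOX replicate 2 (1.04). The difference of Lmo2 responses was 2.24 to 4.58 without 1 library, and it passed in limma without GTML3 DMSO replicate 3 (4.58) or GTML3 DOX replicate 1 (4.11), with edgeR (3.43, adjusted p = 0.0109), with DESeq2 (3.50, adjusted p = 0.00145) and on log2(CPM + 1) (2.67). That of Twist1 passed on log2(CPM + 1) (0.947).

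Same-numbered line samples did not deviate together, with correlations from −0.154 to 0.077, so the replicate numbers share only a number. With the replicate block, preGTS1 under DOX against DMSO had 5358 genes higher and 5257 lower, Twist1 at an adjusted p of 0.0436 and Lmo2 at 0.0101 in limma, and no call of a member changed. Tumors carry no shared replicate numbers, so no replicate block was fitted there, and the column number was a term instead. ATAC duplicates count as 1 sample, so their limma counts stand only as an alternative, and cells have no test.

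Member regions past the fold in GTML3 under DOX, 7 as reported, were 1 at a minimum of 50 reads, 2 from either duplicate alone and 3 with limma on the duplicates. For preGTS1 under DOX, 14 became 26 at 1.5-fold and 3 with limma. Between the lines under DMSO, 22 became 13 at 50 reads and 10 with limma, and under DOX 21 became 8 and 9. GTS1 went to 6 of 19 at 50 reads, GTS2 to 6 of 18 and to 10 to 16 from 1 duplicate, and GTS2 over GTS1 to 7 of 22. GFP over nonGFP, 4 as reported, was 12 at 1.5-fold, 0 with CPM + 0.5, 1 with limma and 6 to 8 from 1 duplicate.

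Shares of cells move with depth. In fGTS2 and GTML cells thinned to 10000 UMIs they were 84.8% and 8.44% for Foxe1, 6.34% and 4.05% for Twist1, 67.7% and 5.01% for Lmo2, and 74.5% and 4.03% for Tspan6. At 5000 UMIs they were 60.7% and 5.38%, 3.28% and 2.69%, 46.2% and 2.87%, and 51.9% and 3.28%. At least 2 UMIs were in 84.3% and 3.90% for Foxe1, 2.73% and 2.28% for Twist1, 67.3% and 2.61% for Lmo2, and 75.0% and 2.99% for Tspan6. Cells with at least 3 members over expected were 1.04 in fGTS2 and 20.3 in GTML without strata, and 1.11 and 21.4 at 5000 UMIs. ATAC depth limits GTML3 most, and tumor depth is unknown.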
